A study of Homo sapiens with 6 samples.

Results

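The kinesin genes of HEK293T cells were examined without and with valproic acid (VPA) treatment. Members were chosen by gene symbol alone, as every KIF gene of the motor superfamily, the KIFC genes and the 4 kinesin light chain genes (KLC1 to KLC4), with antisense and divergent transcripts left out. This gave 46 genes of the 47470 listed in the count tables. Of these, 14 were grouped as transport kinesins (KIF1A, KIF1B, the KIF3, KIF5 and KIF21 genes and the light chains), 12 as mitotic kinesins (KIF11, KIF14, KIF15, KIF18A, KIF18B, KIF20A, KIF20B, KIF22, KIF23, KIF2C, KIF4B and KIFC1) and the remaining 20 as other kinesins. HEK293T cells derive from human embryonic kidney and express the large T antigen of SV40. The labels give the untreated cells as WT and, in the same field, the others only as VPA-treated, with no edit or transgene named for either group. The 3 untreated libraries came from cells that received no drug. The 3 VPA-treated libraries came from cells kept in 1 mM VPA, an inhibitor of class I and IIa histone deacetylases, for 1 day. All 6 are mRNA libraries of this 1 cell line, at a single dose and time.

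Kinesins are ATP-driven motors that walk along microtubules, most of them towards the plus end. Transport kinesins carry vesicles, organelles and protein complexes, and neurons depend on them to supply the axon, so that several family members are enriched in the nervous system. Mitotic kinesins build and shorten the spindle, move chromosomes and complete cytokinesis, and their transcripts normally peak in G2 and mitosis in dividing cells.

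After VPA 4 of 14 tested transport genes were up-regulated, against 12.0% of all tested genes, and none of 11 tested mitotic genes was. Of the mitotic genes 9 belong to a class of abundant genes in which only 0.732% of all genes were up-regulated. KIF5C, a neuron-enriched heavy chain of conventional kinesin, rose 5.06-fold, KIF1A, the axonal carrier of synaptic vesicle precursors, rose 2.93-fold, KIF21B rose 2.83-fold and the light chain KLC3 rose 2.17-fold. The mitotic genes that changed all fell, and by less, from a ratio of 0.896 for KIF22 to 0.711 for KIF2C. Of the 11 tested, 7 (63.6%) were called lower, against 30.0% of all tested genes and 57.4% of that abundant class. These calls depended on the scaling, as described below. In the KIF5, KIF1 and light chain groups paralogs moved in opposite directions. KIF5C rose while its ubiquitous paralog KIF5B fell, KIF1A rose while KIF1C fell, and KLC3 rose while KLC4 fell. KIF5B and KIF1C belong to the same abundant class, in which 57.4% of all genes were called lower. The call of KIF5B was lost with library totals as the scaling.

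The counts assigned to genes totalled 18622267 to 18828495 per library. Of the 47470 genes, 15298 passed the filter on low counts and were tested, 42 kinesins among them. Values are counts normalized with TMM (trimmed mean of M values) and scaled to the mean library, and folds are VPA-treated over untreated. A gene was called higher or lower at an adjusted p under 0.05 in edgeR's quasi-likelihood test, and up- or down-regulated if the log2 fold change was also at least 1 in size. Over all tested genes 32.9% were called higher, 30.0% lower, 12.0% up-regulated and 0.503% down-regulated, and the median log2 fold change was 0.0058. The line's own markers were present, with 8 of 8 tested, and they moved too, 6 higher (PAX2, KRT8 and NEFL up-regulated) and 2 lower (VIM and CDH2). Of 7 neuron markers 4 were tested and all 4 were up-regulated (RBFOX3, SNAP25, MAP2, TUBB3), with a summed level of 175 to 225 normalized counts in the untreated and 587 to 639.6 in the VPA-treated libraries. SNAP25 had 2 raw counts in each untreated library and passed the filter through the VPA-treated libraries only, so its direction was fixed by the filter. SYP, on the X chromosome, is listed at 0 like all genes placed there and was not measured. Of 6 fibroblast and endothelial markers 3 were tested and also up-regulated (COL1A1, DCN, LUM), and the 6 summed to 430.4 to 482 without and 1492 to 1666 with treatment, with COL1A2 and CDH5 at 0 in the untreated libraries. DCN, with 0, 0 and 3 raw counts in the untreated libraries, likewise passed the filter through the VPA-treated libraries only. The 5 blood markers summed to at most 46.0, with PTPRC, CD3E and HBB at 0 in the untreated libraries.

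Among the transport kinesins all 14 were tested. Of these 8, or 57.1%, were higher, 4 were lower and 2 did not pass, where 32.9% and 30.0% of all tested genes were higher and lower, and 4 of the 14 were up-regulated against 12.0%. Their median log2 fold change was 0.15. Summed over the list, normalized counts went from 17105 ± 162 to 23375 ± 56.7 (SD, n = 3 each), a ratio of 1.37. The groups did not overlap for 13 of the 14, with KLC2 as the exception, and for 65.8% of all tested genes (34.8% with VPA-treated libraries higher and 31.0% with them lower). The neuron markers described above were higher in the same libraries, and their part in these values was not tested.

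**Figure D1:**
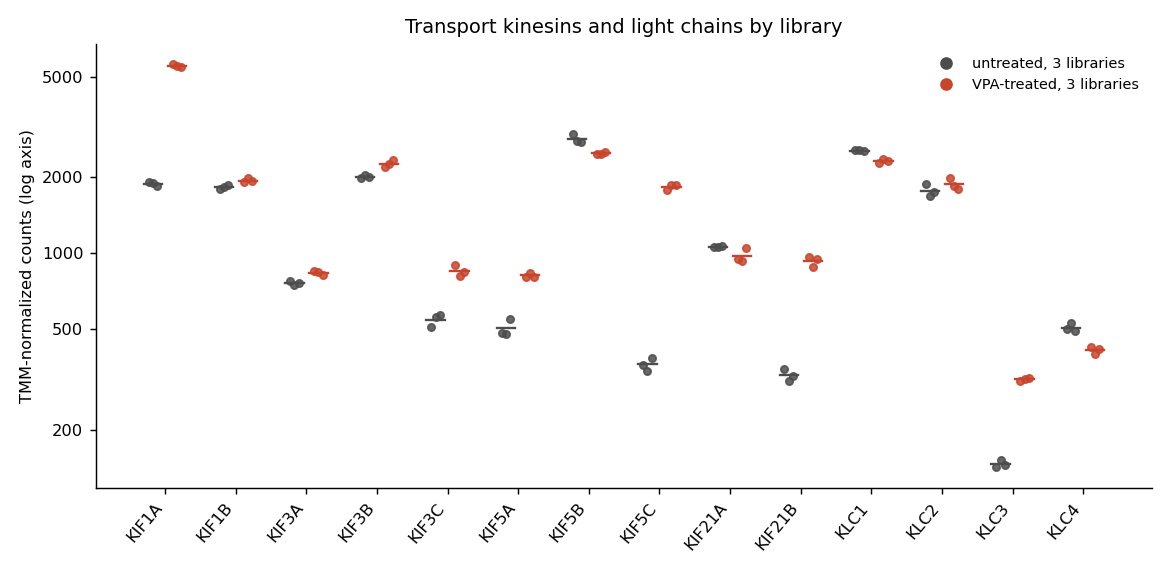
TMM-normalized counts (log axis) of the 14 transport kinesins and light chains, with 3 untreated libraries in grey and 3 VPA-treated libraries in red, and a line at each mean. KIF5C, KIF1A, KIF21B and KLC3 are farthest apart between the groups, and the points overlap for KLC2 alone.

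The KIF5 genes encode the heavy chain of conventional kinesin, the main plus-end carrier of vesicles and mitochondria. KIF5B is expressed in most tissues, and KIF5A and KIF5C mainly in neurons. KIF5C lies at chr2:148875227-149026759 on the plus strand (GRCh38.p14) and KIF5B at chr10:32009015-32056425 on the minus strand. The 100 bases before each RefSeq gene start are shown because these paralogs moved in opposite directions. Capitals mark exact matches, on either strand, to the GC box GGGCGG or the CCAAT box, and the window of KIF5C is at chr2:148875127-148875226 and that of KIF5B at chr10:32056426-32056525.
KIF5C: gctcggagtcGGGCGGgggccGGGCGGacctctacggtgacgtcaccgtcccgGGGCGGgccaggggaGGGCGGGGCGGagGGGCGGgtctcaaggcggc
KIF5B: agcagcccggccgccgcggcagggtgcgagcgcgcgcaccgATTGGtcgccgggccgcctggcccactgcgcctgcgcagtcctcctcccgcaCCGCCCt
KIF5C held 6 GC boxes in this stretch, of which 2 overlap, and no CCAAT box. KIF5B held 1 of each. In the longer promoter window searched below, KIF5C also held a CCAAT box, at -222 from its start. KIF5B held a further GC box there at -188 and the CHR motif described below at -140. Both genes thus matched the CCAAT box in the longer window, and its absence from KIF5C holds for the printed stretch only.

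KIF5C had 361, 340.2 and 386 normalized counts without VPA and 1775, 1863 and 1865 in VPA-treated libraries. The highest untreated library was far below the lowest VPA-treated one. The log2 fold change was 2.34, SE 0.057, adjusted p = 4.14e-18. KIF5A, the heavy chain linked to inherited spastic paraplegia, had 485, 479 and 547 normalized counts without VPA and 808, 835 and 808 in VPA-treated libraries, a log2 fold change of 0.70, SE 0.060, adjusted p = 1.88e-09. KIF5B had 2976, 2781 and 2768 normalized counts without VPA and 2477, 2461 and 2515 in VPA-treated libraries. Its groups did not overlap and the log2 fold change was -0.19, SE 0.042, adjusted p = 4.03e-04, a call that was lost with library totals as the scaling (-0.063, adjusted p = 0.217).

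To compare levels between paralogs, counts were divided by the length of the canonical GENCODE transcript. KIF5C then made up 8.36% ± 0.49 of the KIF5 sum in untreated and 31.8% ± 0.52 in VPA-treated libraries (SD, n = 3 each). KIF5B went from 77.7% ± 1.60 to 51.1% ± 0.63 of that sum but was still the most abundant of the 3, and KIF5A went from 14.0% ± 1.12 to 17.1% ± 0.33. The summed KIF5 level per kilobase went from 624 ± 18.7 to 829 ± 10.2 normalized counts, a ratio of 1.33. Among all 46 kinesins ranked by level per kilobase, KIF5C moved from rank 32 to rank 16. The proteins are close relatives, with 76.8% identical residues between KIF5B and KIF5C, 76.1% between KIF5A and KIF5C and 71.7% between KIF5A and KIF5B in global alignments of the translated GENCODE transcripts.

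**Figure D2:**
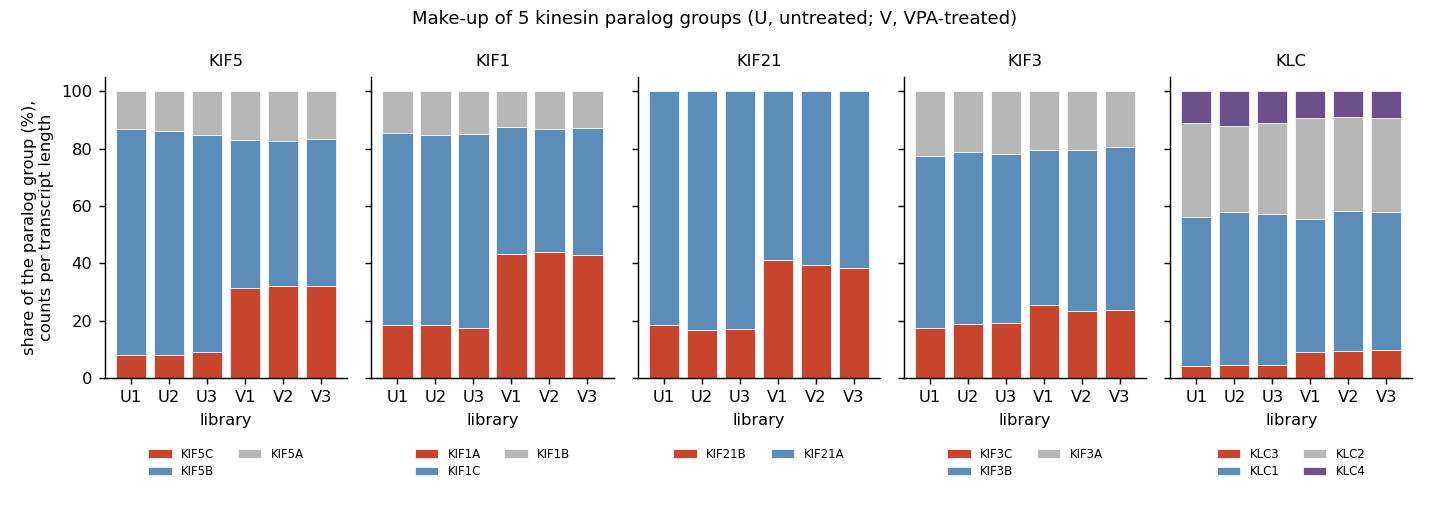
Share (%) of each gene in 5 kinesin paralog groups, from normalized counts per transcript length, with 1 bar per library (U1 to U3 untreated, V1 to V3 VPA-treated). The red segments, KIF5C, KIF1A, KIF21B, KIF3C and KLC3, are larger in every VPA-treated library than in any untreated one.

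KIF1A and KIF1B are kinesin-3 motors. KIF1A moves synaptic vesicle precursors and dense-core vesicles along axons, and KIF1B also carries mitochondria. KIF1A, at chr2:240713767-240821403 on the minus strand, is shown with the 100 bases before its outermost RefSeq start (chr2:240821404-240821503, minus strand). These bases hold no match to the GC box, the CCAAT box or the CHR motif described below. Alternative promoters of KIF1A did hold a GC box, at -48 and 35 bases from their own starts.
KIF1A: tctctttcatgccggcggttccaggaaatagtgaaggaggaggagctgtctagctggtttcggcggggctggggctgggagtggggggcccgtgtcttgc
KIF1A had 1912, 1888 and 1849.7 normalized counts without VPA and 5604, 5526 and 5439 in VPA-treated libraries. The 3 libraries of each group lay close together and the groups were far apart. Its log2 fold change was 1.55, SE 0.040, adjusted p = 9.63e-18. KIF1B had 1795, 1835 and 1871 normalized counts without VPA and 1908, 1986 and 1925 in VPA-treated libraries. Although these groups did not overlap, the log2 fold change of KIF1B was 0.081, SE 0.043, adjusted p = 0.104, which did not pass. KIF1B was called higher with library totals (adjusted p = 1.96e-04), upper quartile scaling (0.0057), at least 10 counts in every library (0.0395) and a replicate block (0.034).

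The third gene of this group, KIF1C, is a more widely expressed motor and belongs to the other kinesins here. It had 5972, 5852 and 6274 normalized counts without VPA and 4946, 4707 and 4831 in VPA-treated libraries, with no overlap and a log2 fold change of -0.32, SE 0.041, adjusted p = 5.81e-07. Per length, KIF1C made up 67.0% ± 0.81 of the KIF1 sum in untreated libraries and 43.8% ± 0.66 in VPA-treated ones, while KIF1A went from 18.1% ± 0.69 to 43.4% ± 0.35. After treatment the levels of these 2 genes per kilobase, 605 ± 9.03 for KIF1A and 609.8 ± 15.1 for KIF1C, differed by less than either SD. This rests on the lengths used, since without division by length KIF1A made up 44.9% ± 0.32 and KIF1C 39.3% ± 0.66 of the sum. KIF1A moved from rank 17 to rank 7 of the 46 genes.

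The KIF21 genes encode kinesin-4 motors that restrain microtubule growth, and KIF21B is found in dendrites and in immune cells. KIF21B had 348, 312 and 326 normalized counts without VPA and 964, 884 and 948 in VPA-treated libraries, without overlap. The log2 fold change was 1.50, SE 0.063, adjusted p = 1.26e-14. KIF21A had 1056, 1055 and 1073 normalized counts without VPA and 947, 932 and 1045 in VPA-treated libraries, and its call was marginal (log2 fold change -0.12, SE 0.053, adjusted p = 0.048). The sign of KIF21A turned to 0.0087 (adjusted p = 0.899) with library totals, and the call was lost in 7 other alternatives, among them the omission of untreated replicate 2, untreated replicate 3, VPA-treated replicate 1 or VPA-treated replicate 2 (adjusted p from 0.072 to 0.199). The share of KIF21B in the pair went from 17.4% ± 0.81 to 39.5% ± 1.39 per length.

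KIF3A and KIF3B form the heterotrimeric kinesin-2 that drives intraflagellar transport, and KIF3C is a neuron-enriched partner of KIF3A. KIF3C had 508, 559 and 571 normalized counts without VPA and 896, 809 and 843 in VPA-treated libraries, without overlap. Its log2 fold change was 0.64, SE 0.061, adjusted p = 8.74e-09. The changes of KIF3B (0.17, SE 0.042, adjusted p = 0.0016) and KIF3A (0.14, SE 0.052, adjusted p = 0.025) on the log2 scale were small. KIF3A was not called in DESeq2 (adjusted p = 0.198), without the filter on low counts (0.103), or without untreated replicate 2, untreated replicate 3, VPA-treated replicate 1 or VPA-treated replicate 2 (0.063 to 0.101).

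Kinesin light chains join KIF5 heavy chains and bind cargo. KLC1 is enriched in neurons, KLC2 is widely expressed and KLC3 is best known from spermatids. KLC3 had 142, 152 and 145 normalized counts without VPA and 312, 318 and 322 in VPA-treated libraries. All VPA-treated libraries were above all untreated ones, and the log2 fold change was 1.12, SE 0.083, adjusted p = 1.68e-10. KLC4 had 502, 528 and 490.2 normalized counts without VPA and 425, 399.8 and 417 in VPA-treated libraries, again without overlap but in the other direction, with a log2 fold change of -0.29, SE 0.063, adjusted p = 4.11e-04. The difference for KLC1, from 2549 ± 14.9 to 2313 ± 48.0 normalized counts, was small (log2 fold change -0.14, SE 0.040, adjusted p = 0.0047) and was not called with library totals (adjusted p = 0.862) or upper quartile scaling (0.121). KLC2 went from 1770.0 ± 98.5 to 1879 ± 101 normalized counts and did not pass (0.086, SE 0.050, adjusted p = 0.141). It was called higher without untreated replicate 1 (log2 fold change 0.12, adjusted p = 0.033). The same held with library totals (adjusted p = 0.0013), upper quartile scaling (0.011) and a replicate block (0.026). The summed light chain level per kilobase was 1896 ± 31.3 before and 1897 ± 23.3 after treatment, a ratio of 1.00 beside the 1.33 of the KIF5 sum. KLC3 went from 4.33% ± 0.21 to 9.39% ± 0.25 of that sum and KLC1 from 52.7% ± 0.68 to 47.8% ± 1.32. KLC1, KLC3 and KLC4 overlap XRCC3, ERCC2 and MRPL2 on the opposite strand, KLC2 overlaps PACS1 on its own strand, and the strand setting of the counting is not given in the sources used here, although the libraries keep strand.

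Of the 12 mitotic kinesins 11 were tested. None was higher, 7 (63.6%) were lower against 30.0% of all tested genes, 4 did not pass, and none reached the threshold for down-regulation. The median log2 fold change was -0.16. The list summed to 21107 ± 525 normalized counts without VPA and 17834 ± 323 in VPA-treated libraries (SD, n = 3 each), a ratio of 0.845. The 7 lower genes had no overlap between groups and the 4 others overlapped, where 31.0% of all tested genes were lower without overlap. In RNA from whole cultures, fewer cells in mitosis and less RNA per cell cannot be told apart.

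**Figure D3:**
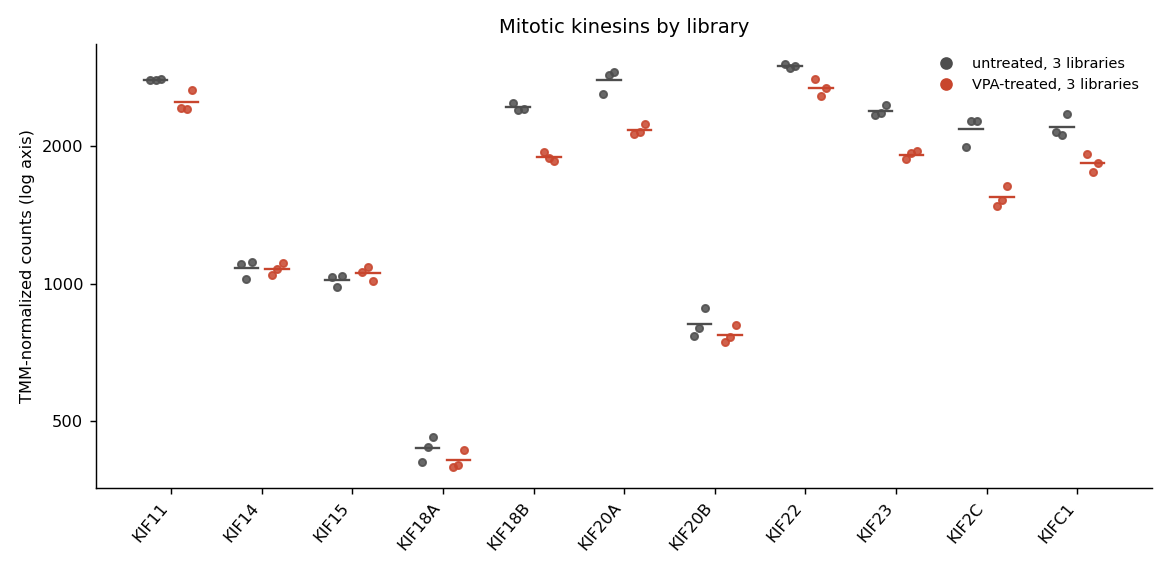
TMM-normalized counts (log axis) of the 11 tested mitotic kinesins, with 3 untreated libraries in grey, 3 VPA-treated libraries in red and a line at each mean. The groups separate for KIF2C, KIF20A, KIF18B, KIF23, KIFC1, KIF11 and KIF22 and overlap for KIF14, KIF15, KIF18A and KIF20B.

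Among the motors of chromosome movement, KIF2C, a kinesin that depolymerizes microtubules at centromeres, had 1986, 2264 and 2268 normalized counts without VPA and 1479, 1522 and 1634 in VPA-treated libraries, which made its log2 fold change of -0.49, SE 0.054, adjusted p = 7.28e-08 the lowest of the 42. Untreated replicate 1 was the lowest of its group and still above all VPA-treated libraries. KIF18B, which shortens astral microtubules, had 2485, 2392 and 2405 normalized counts without VPA and 1938, 1882 and 1853 in VPA-treated libraries, a log2 fold change of -0.36, SE 0.042, adjusted p = 1.84e-07. KIF18A, which damps chromosome oscillation on the metaphase plate, had 408, 441 and 462 normalized counts without VPA and 397, 403 and 434 after VPA and did not pass (log2 fold change -0.087, SE 0.069, adjusted p = 0.278). The difference between the KIF18 genes was not itself tested. KIF22, a chromosome arm motor and the kinesin of highest level per kilobase in both groups (1437 ± 12.7 and 1288 ± 53.7), went from 2991 ± 26.4 to 2679.8 ± 112 normalized counts (log2 fold change -0.16, SE 0.042, adjusted p = 0.0023).

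For the motors of cytokinesis, KIF20A, which brings the chromosomal passenger complex to the central spindle, had 2590.3, 2857 and 2903 normalized counts without VPA and 2118, 2141 and 2229 in VPA-treated libraries. The groups did not overlap, and the log2 fold change was -0.36, SE 0.047, adjusted p = 6.77e-07. KIF20A overlaps CDC23 on the opposite strand, which matters only if strand was not used in counting. KIF23, the motor of centralspindlin, had 2338, 2363 and 2459.6 normalized counts without VPA and 1868, 1928 and 1947 in VPA-treated libraries, a log2 fold change of -0.32, SE 0.042, adjusted p = 1.23e-06. By contrast KIF14, which works with PRC1 and citron kinase at the midbody, had 1105, 1023 and 1113 normalized counts without VPA and 1043, 1075 and 1108 in VPA-treated libraries, and its log2 fold change was -0.0066, SE 0.051, adjusted p = 0.921. KIF20B, another midbody motor, had 767, 802 and 885 normalized counts without VPA and 745, 763 and 812 in VPA-treated libraries (log2 fold change -0.081, SE 0.060, adjusted p = 0.245). Both overlapped between groups, and the sign of KIF14 turned under 6 alternatives without a call, except with library totals (0.12, adjusted p = 0.043).

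Of the motors that assemble the spindle, KIF11, which slides antiparallel microtubules apart and is the target of spindle poison drugs, is at chr10:92593130-92655395 on the plus strand. KIF15, its partial substitute, KIF18A and KIF23 are shown with it because their promoters carry, within 100 bases before the RefSeq start, the cell cycle homology region (CHR) TTTGAA, the element by which many G2 and mitosis genes are bound by the DREAM and MuvB complexes. Capitals mark the CHR, the CCAAT box and the GC box on either strand. The windows are chr10:92593030-92593129 (plus strand) for KIF11, chr3:44761694-44761793 (plus) for KIF15, chr11:28108157-28108256 (minus) for KIF18A and chr15:69414249-69414348 (plus) for KIF23.
KIF11: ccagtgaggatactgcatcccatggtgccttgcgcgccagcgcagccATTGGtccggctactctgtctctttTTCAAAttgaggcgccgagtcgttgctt
KIF15: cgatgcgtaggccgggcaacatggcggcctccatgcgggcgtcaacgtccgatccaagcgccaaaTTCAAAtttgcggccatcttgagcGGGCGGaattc
KIF18A: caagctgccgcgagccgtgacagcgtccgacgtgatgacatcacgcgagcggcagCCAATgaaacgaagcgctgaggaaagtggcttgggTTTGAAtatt
KIF23: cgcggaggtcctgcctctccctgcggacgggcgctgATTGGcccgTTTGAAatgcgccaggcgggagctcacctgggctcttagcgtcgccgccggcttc
In KIF11, KIF18A and KIF23 the CCAAT box precedes the CHR, and KIF15 holds a GC box and no CCAAT box. KIF11 and KIF23 were lower after VPA while KIF15 and KIF18A did not pass, and the differences between these genes were not tested.

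KIF11 had 2784, 2779 and 2803 normalized counts without VPA and 2416, 2412 and 2642 in VPA-treated libraries, where VPA-treated replicate 3 was closest to the untreated libraries. Its log2 fold change was -0.16, SE 0.044, adjusted p = 0.0026. KIF15 had 1033, 984 and 1040.3 normalized counts without VPA and 1063, 1088 and 1013 after VPA and did not pass (log2 fold change 0.049, SE 0.050, adjusted p = 0.407), with overlapping groups. KIFC1, the minus-end motor that focuses spindle poles and clusters extra centrosomes, had 2144, 2112 and 2351 normalized counts without VPA and 1923, 1755 and 1832 in VPA-treated libraries, a log2 fold change of -0.26, SE 0.049, adjusted p = 8.37e-05 without overlap. KIF4B, a chromokinesin encoded by a single exon, had 2, 1 and 0 raw counts in the untreated and 3, 1 and 1 in the VPA-treated libraries and was under the filter. Its protein is 93.9% identical to that of KIF4A, so reads that fit both could have been set aside in the counting. KIF4A, also a mitotic motor, is grouped with the other kinesins by the symbol rule and is listed at 0 in every library, as are all 1610 genes placed on the X and Y chromosomes, so its level was not measured here.

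The calls of the mitotic genes depended on the scaling. With library totals in place of TMM the median of all tested genes was 0.14, and 73.9% of all called genes were higher, against 52.3% with TMM. The mitotic median was then -0.032 and the transport median 0.28, with 5 mitotic genes lower and 2 (KIF14 and KIF15) higher, and KIF11 and KIF22 no longer called. With upper quartile scaling 5 were lower, and KIF11 (adjusted p = 0.063) and KIF22 (0.059) lost their calls as well. Relative to the median of all tested genes, the mitotic list was at -0.17 and the transport list at 0.15 under both scalings. A change of scaling shifts all genes nearly alike, so these distances could hardly differ and are no check on the calls. KIF5C, KIF1A, KIF21B and KLC3 passed both thresholds in all 13 alternatives in which single genes were followed.

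Call rates also moved with abundance. Among the 4643 tested genes that averaged 1000 or more normalized counts over all libraries, 57.4% were lower, 14.6% higher and 0.732% up-regulated. This class held 9 mitotic kinesins, of which 7 were lower, and 8 transport kinesins, of which 3 were higher, 3 lower and 2, KIF1A and KIF5C, up-regulated. In the 6422 genes with a mean from 100 to under 1000, 38.9% were higher, 25.4% lower and 8.84% up-regulated. There, 5 of 6 transport kinesins were higher and 2 up-regulated, KIF21B and KLC3, and neither of the 2 mitotic kinesins, KIF18A and KIF20B, was lower. No transport or mitotic kinesin tested had a mean under 100.

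**Figure D4:**
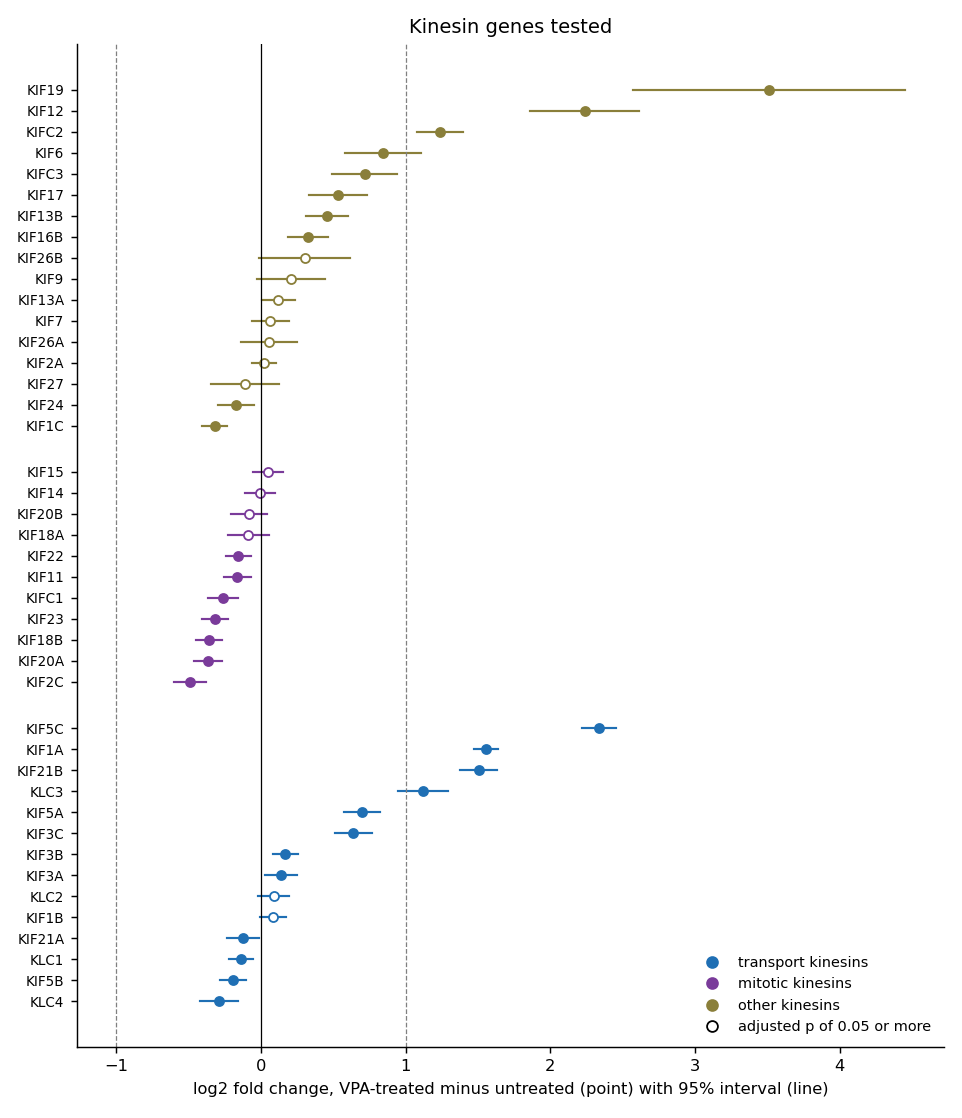
Log2 fold change, VPA-treated minus untreated (points), with its 95% interval (lines) for the 42 tested kinesins by list, where open points did not pass an adjusted p of 0.05 and dashed lines mark -1 and 1. Transport kinesins run from -0.29 to 2.34 and mitotic kinesins from -0.49 to 0.049.

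Of the 20 other kinesins 17 were tested, and 8 (47.1%) were higher against 32.9% of all genes, 2 lower against 30.0% and 7 not called. The median log2 fold change was 0.30, and 3 were up-regulated (17.6% against 12.0%). KIFC2, a minus-end motor of the nervous system, had 388, 306 and 346 normalized counts without VPA and 883, 775 and 794 in VPA-treated libraries, a log2 fold change of 1.24, SE 0.075, adjusted p = 1.02e-11. KIF12, a motor of kidney and bile duct epithelium, had 19.7, 20.9 and 14.7 normalized counts without VPA and 91.0, 79.0 and 91.9 in VPA-treated libraries (log2 fold change 2.24, SE 0.18, adjusted p = 7.63e-10). Both were separated between groups, KIF12 at levels under 100. KIFC2 overlaps TMEM276 and FOXH1 on the opposite strand, which matters only if strand was not used in counting. KIF19, which shortens motile cilia, was nearly silent before treatment, with 1, 3 and 1 raw counts against 26, 18 and 22. The ratio of the summed counts, 66 to 5, was 12.1 with an exact binomial 95% interval of 4.94 to 38.6 that covers counting error only, and the fitted log2 fold change was 3.51, SE 0.45, adjusted p = 7.68e-07. KIF19 passed the filter through the VPA-treated libraries only, so its direction was fixed by the filter and its p-value is no support for it. It was not tested where at least 10 counts were asked of every library, and 2 genes of this list were then up-regulated.

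Smaller increases among the other kinesins were in KIF6, a motor of ciliated ependymal cells (log2 fold change 0.84, SE 0.13, adjusted p = 6.04e-06), KIFC3, a minus-end motor at cell junctions (0.72, SE 0.11, adjusted p = 6.04e-06), KIF17, a dendritic motor (0.53, SE 0.096, adjusted p = 6.24e-05), and KIF13B, a kinesin-3 motor (0.45, SE 0.069, adjusted p = 6.44e-06). For KIFC3, VPA-treated replicate 1 was the highest at 279 against 207 and 229 in the others, all above the 141 to 152 of the untreated libraries. The genes called lower were KIF1C and KIF24, a centriolar kinesin, which was not called without VPA-treated replicate 1 (adjusted p = 0.073), with library totals (0.564) or with upper quartile scaling (0.122). KIF2B is listed at 0 in all libraries, and KIF25 was under the filter with 7, 4 and 3 raw counts before and 16, 6 and 7 after VPA.

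All 23 adaptors and cargo partners of kinesins were tested, of which 10 (43.5%) were higher against 32.9% of all genes, 3 lower against 30.0% and 10 not called. The median log2 fold change was 0.12, and 4 were up-regulated (17.4% against 12.0%). FEZ1, an adaptor that links KIF5 to axonal cargo, had 68.3, 76.4 and 82.9 normalized counts without VPA and 551, 576 and 596 in VPA-treated libraries, a 7.56-fold rise (log2 fold change 2.92, SE 0.090, adjusted p = 9.74e-17). The calsyntenins CLSTN2 and CLSTN3, cargo receptors that bind light chains, went from 20.9 ± 0.93 to 117 ± 17.8 normalized counts and from 874 ± 8.40 to 1854 ± 70.9 normalized counts, with log2 fold changes of 2.48, SE 0.18, adjusted p = 8.56e-11 and 1.08, SE 0.048, adjusted p = 2.89e-14. The third calsyntenin, CLSTN1, did not pass (0.012, SE 0.040, adjusted p = 0.818). HAP1, which binds huntingtin and kinesin light chain, rose at the threshold itself (1.00, SE 0.083, adjusted p = 9.46e-10). The number of up-regulated adaptors was 3 with DESeq2, with its size factors in edgeR and without the filter on low counts. It was also 3 without untreated replicate 1 or 3, or without VPA-treated replicate 1 or 3. The scaffolds MAPK8IP2 (0.69, SE 0.062, adjusted p = 1.57e-08) and MAPK8IP1 (0.53, SE 0.055, adjusted p = 3.72e-08) were also higher, and RHOT2, a mitochondrial anchor for motors, was lower (-0.30, SE 0.053, adjusted p = 5.60e-05).

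The minus-end motor dynein was set beside the kinesins. Of 27 dynein, dynactin and dynein regulator genes 26 were tested, 5 higher, 13 lower and 8 not called (32.9% and 30.0% of all genes were higher and lower), with a median log2 fold change of -0.11. Of the 19 that averaged 1000 or more, 11 were lower, near the 57.4% of all genes in that class. The 2 up-regulated genes, both enriched in neurons, were the intermediate chain DYNC1I1, from 49.4 ± 3.78 to 169 ± 21.1 normalized counts (log2 fold change 1.77, SE 0.14, adjusted p = 2.50e-10), and the adaptor BICDL1, from 122 ± 12.2 to 305 ± 22.1 normalized counts (1.32, SE 0.097, adjusted p = 1.21e-10). The paralog DYNC1I2 of the first did not pass (-0.0078, SE 0.044, adjusted p = 0.889). The light intermediate chain DYNC1LI1 (-0.42, SE 0.043, adjusted p = 2.85e-08) and the dynein activator NDEL1 (-0.38, SE 0.051, adjusted p = 1.32e-06) were lower, and the adaptor HOOK1 was higher (0.38, SE 0.045, adjusted p = 2.85e-07).

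Of 25 spindle and cytokinesis partners, all tested, 14 were lower, 1 higher and 10 not called, none was up- or down-regulated, and the median log2 fold change was -0.16. All 25 averaged 1000 or more normalized counts, and their share of lower genes, 56.0%, was near the 57.4% of that class. Lower genes of smallest adjusted p were NUMA1, the spindle pole anchor of dynein (-0.45, SE 0.045, adjusted p = 1.61e-08), the checkpoint kinase BUB1 (-0.34, SE 0.040, adjusted p = 2.64e-07) and CDCA8, a subunit of the passenger complex that KIF20A carries (-0.38, SE 0.050, adjusted p = 1.29e-06). The gene called higher was CENPE, itself a kinetochore kinesin whose symbol lies outside the rule (0.19, SE 0.049, adjusted p = 0.0018). RACGAP1, the partner of KIF23, and PRC1, the partner of KIF14 and KIF4A, did not pass (-0.048, SE 0.054, adjusted p = 0.452 and -0.081, SE 0.040, adjusted p = 0.083). The proliferation marker MKI67 had 11548, 10749 and 11367 normalized counts without VPA and 11465, 11912 and 11691 after VPA and did not pass (log2 fold change 0.059, SE 0.041, adjusted p = 0.221). KIF24, CENPE, RACGAP1, PRC1 and MKI67 were picked out after their values were seen, as were CLSTN1 and DYNC1I2.

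The promoters of the lists were compared by exact letter matches in RefSeq sequence (GRCh38.p14), from 250 bases before to 50 after each start and on both strands. Of the 46 kinesins 36 had an entry, and KIF5A, KIF21B, KLC2, KLC4, KIF13B, KIF19, KIF26B, KIF27, KIFC2 and KIFC3 had none. The CHR TTTGAA was found in 9 of 12 mitotic genes (KIF11, KIF14, KIF15, KIF18A, KIF18B, KIF20B, KIF23, KIF4B and KIFC1), in 1 of 10 transport genes (KIF5B) and in 1 of 14 other kinesins (KIF4A), and in 15.2% of all 35116 promoters. Counted per gene like the members, it was in 18.2% of all genes with an entry and 13.6% of the tested ones. CCAAT was present in 10 of 12, 4 of 10 and 4 of 14, against 34.6% of promoters, 39.7% of genes and 42.4% of tested genes. Both stood together in 8 of 12 mitotic genes, against 5.90% of promoters, 7.26% of genes and 5.63% of tested genes. GGGCGG was in 11 of 12 mitotic, 10 of 10 transport and 13 of 14 other kinesins, and in 45.0% of all promoters, 48.3% of genes and 76.2% of the 11739 tested genes with an entry.

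Rarer elements matched few promoters, in the kinesins as in all genes. The CHR variant TTCGAA was in KIF22 and KIF24 (1.45% of all promoters and 1.82% of genes). The E2F site TTTGGCGC was in KIF15 (0.652% and 0.795%), and TTTCGCGC was in none (0.515% and 0.630%). Of the left and right parts of the RE1 element, bound by REST, a repressor of neuronal genes, TTCAGCACC was in none (0.376% and 0.469%) and GGACAGC was in KIF2C alone (6.03% and 7.33%). Of the 8 mitotic genes with a CHR that were tested, 4 were lower after VPA (KIF11, KIF18B, KIF23, KIFC1) and 4 did not pass (KIF14, KIF15, KIF18A, KIF20B). The 3 tested without it, KIF20A, KIF22 and KIF2C, were all lower. All 3 averaged 1000 or more normalized counts, the class in which 57.4% of all genes were lower. Among the tested genes with a CHR, KIF18A and KIF20B averaged less. KIF22 also holds the variant TTCGAA. Whether the calls go with the motif was not tested. A match is a description of the letters and not a bound site.

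**Figure D5:**
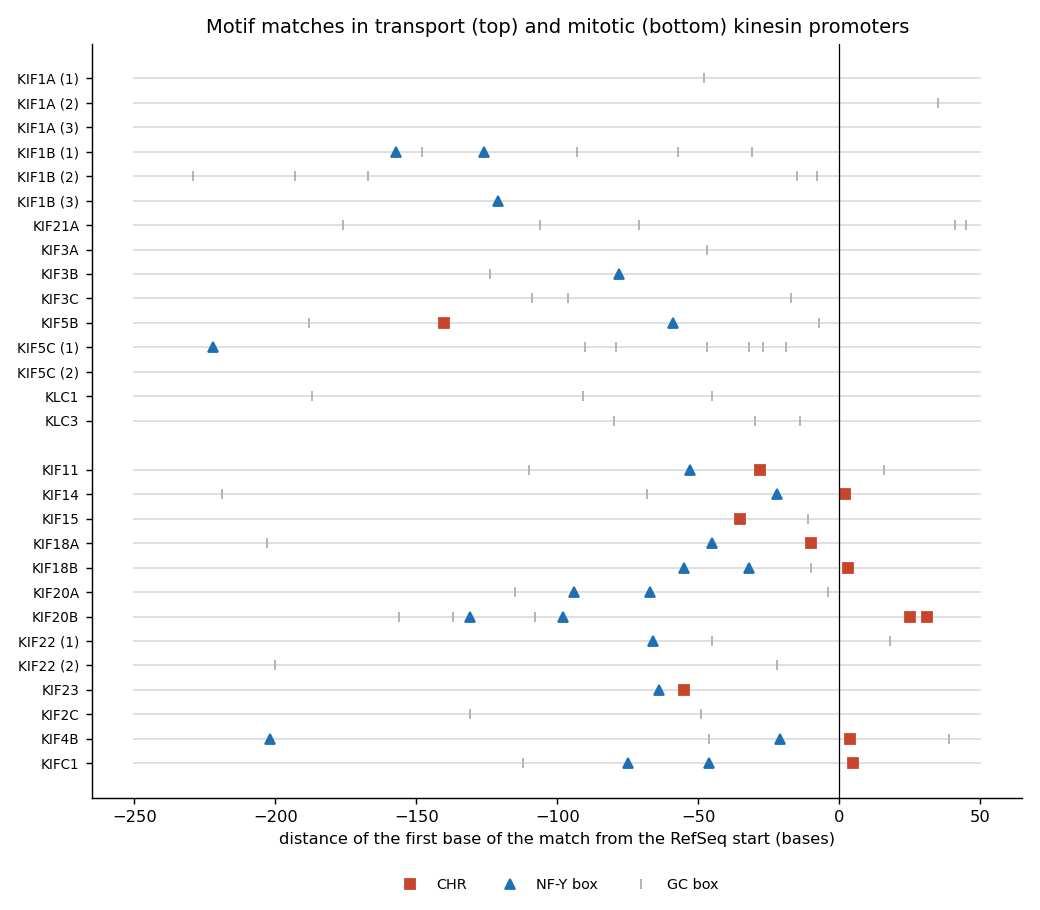
Position of CHR (red squares), NF-Y or CCAAT box (blue triangles) and GC box (grey ticks) matches in RefSeq promoters of transport (top) and mitotic (bottom) kinesins, as the distance in bases of the first base of the match from the start (vertical line), with numbers in brackets for alternative promoters of 1 gene. The CHR matches of mitotic genes lie between -55 and 31, and that of KIF5B is at -140.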

How the data were processed

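RNA was measured in 6 libraries of HEK293T cells, 3 untreated and 3 VPA-treated, grouped by their titles. Nothing in the labels says that the libraries of a group came from separate cultures, so p-values measure only the spread between these libraries. The authors trimmed and filtered the reads in SOAPnuke, mapped them on hg38 by STAR (2.7.10b in the submitters' processing notes) and deposited raw counts per gene from HTSeq (2.0.1 in those notes), without normalization. The libraries are strand-specific per the labels, but neither the annotation nor whether HTSeq counted by strand is given in the sources used here. The 5 summary lines that name no gene were left out, and reads off any gene made up 6.80% to 7.69%.

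Counts were tested with edgeR 4.0.16 (R 4.3.3) (TMM scaling, filterByExpr at a minimum of 10 counts, robust quasi-likelihood test of condition alone, prior count 0.125), and p-values were adjusted by Benjamini-Hochberg over 15298 genes. SE is the log2 fold change over the root of F. On simulated counts with 200 genes changed by 1.5 on the log2 scale, edgeR called 200 over 15056 genes and 14 unchanged ones, and DESeq2 1.42.0 called 200 over 15298 genes and 1 unchanged one. Lists were described by counts and medians, with no set test. Members, lists and tests were chosen with earlier results of these data known. Text names all transport and mitotic members, the other kinesins past both thresholds and the 5 of next smallest adjusted p, and in each partner list those past both thresholds and the next 3. Alternatives were DESeq2, 3 other scalings, 2 other filters, glmTreat, a replicate block and leaving out each library. Gene positions and promoters are from RefSeq (GRCh38.p14), in which all 46 kinesins were found. Lengths and proteins are from GENCODE 44, aligned with Biopython 1.88 (gap opening 11, extension 1), and motor motifs in the proteins were not searched.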

Additional observations from a re-analysis of the deposited data

How the results depend on the processing

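Single genes were followed under 13 alternatives, and 585 of 623 comparisons kept direction and call, including every alternative for 36 of 48 genes. Of the rest 20 lost their call, 9 gained one and 9 turned in sign. With library totals KIF21A turned to 0.0087, KIF14 to 0.12, KIF18A to 0.044 and KIF20B to 0.051 on the log2 scale. KIF14 was also above 0 with upper quartile scaling (0.059), with at least 10 counts in every library (0.016), and ranged from -0.052 (without untreated replicate 2) to 0.015 (without VPA-treated replicate 1) when single libraries were left out, above 0 also without untreated replicate 1 or 3. The cause was not tested.

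With library totals 2372 genes were lower and 38 down-regulated, with 1 transport gene lower, 2 mitotic genes higher, 13 other kinesins higher and 1 lower, 19 adaptors higher and 1 lower, 8 dynein genes higher and 6 lower, and 8 spindle partners higher and 8 lower. With upper quartile scaling 5 mitotic genes, 2 transport genes, 1 other kinesin and 1 adaptor were lower and 5 spindle partners higher. With at least 10 counts in every library 1179 genes were up- and 43 down-regulated, with glmTreat 1149 and 8, and without the filter 162 were down-regulated. Leaving out each library gave 1 to 2 other kinesins lower and 1 to 2 spindle partners higher, where the extreme values came without VPA-treated replicate 1.

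The main fit did not pair the libraries by number. Deviations of same-numbered libraries correlated at 0.14, 0.021 and 0.080, and those of other pairs at -0.11 to 0.031. Every library except untreated replicate 2 correlated best with its own number. Whether same-numbered libraries belong together was not tested. The fit with the replicate block gave 10 transport genes higher, 4 lower and 4 up-regulated, 7 mitotic genes lower and none higher, and 2 spindle partners higher, and KIF1B (adjusted p = 0.034) and KLC2 (0.026) were then called. Without division by length the KIF5C share went from 9.78% to 35.7% and that of KIF1A from 19.3% to 44.9%. At this depth genes under the filter, KIF4B and KIF25 among them, could not be compared.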

Other observations

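Antisense and divergent transcripts named after kinesins lie outside the symbol rule. KIF9-AS1 summed to 109 raw counts over the untreated and 134 over the VPA-treated libraries and did not pass (log2 fold change 0.18, adjusted p = 0.411 in edgeR), nor did KIF26A-DT with 34 and 54 (0.54, adjusted p = 0.147). KIF5C-AS1, the antisense partner of the kinesin with the highest fold change in the KIF5 group, had 8 counts before and 5 after VPA. KIF1C-AS1 had 25 and 17, KIF23-AS1 had 19 and 24, and KLC4-AS1 had 10 and 15, all under the filter.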
